A study of Mus musculus with 8 samples.

Results

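The 10 genes described here are the response of the retina to injury and of its glia to stress. They are Edn2, Fgf2, Lif, Osmr, Stat3, Socs3, Cebpd, Serpina3n, Lcn2 and C4b. They were chosen by name, as signals that stressed photoreceptors send and genes of reactive glia, and make up 10 of the 17500 genes in the deposited table. All 10 were among the 16797 genes that entered the test.

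Whole retinas of 2 groups of 4 mice each were compared by poly(A) RNA sequencing, 1 library per mouse. The Rbfox2-/- group, labelled Rbfox2 KD, held M893, M901, M902 and M909, and the control group M833, M894, M896 and M898. All mice were 6 months old and on the C57BL/6J background. According to the methods of the study, the Rbfox2-/- mice were Rbfox2 fl/fl animals with a tamoxifen-inducible Cre, given tamoxifen by gavage, and the controls were Rbfox2 fl/+ animals of the same age. The Cre line was chosen for its activity in ganglion and amacrine cells among others, and whether it also acted in glia is not stated. The controls carried 1 floxed allele, and no Cre is named for them. The labels give tamoxifen for 4 months for all 8 mice, controls included, and whether the controls received it could not be settled from the sources used here.

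When photoreceptors are damaged or stressed they release endothelin-2, the product of Edn2, and basic fibroblast growth factor, the product of Fgf2. A subset of Müller glia makes leukemia inhibitory factor (Lif), which signals through the gp130 receptor and the transcription factor Stat3 and is needed for the protective response. Reactive Müller glia and astrocytes then express acute-phase genes, among them the protease inhibitor Serpina3n, the siderophore-binding protein lipocalin 2 (Lcn2) and the complement component C4b.

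The targeted gene was lower in each library labelled Rbfox2 KD. Rbfox2 stood at 144, 150, 157 and 148 CPM (counts-per-million, scaled by the TMM method) in the controls and at 53.9, 58.9, 53.6 and 59.4 CPM in the Rbfox2-/- retinas, a log2 fold change of -1.41 ± 0.05 (SE; edgeR quasi-likelihood test, adjusted p = 5.51e-07). The libraries held between 160630226 and 211283591 counts, so that 3 counts equal at most 0.0189 CPM and counting error was small beside the differences between mice. The 7 rod and cone markers, which define the tissue, summed to between 53900 and 60900 CPM. Libraries M901 and M902 stood apart from the other 6 on the first principal component, which held 40.5% of the variance. These 2 libraries had 277506 and 275967 counts of Xist, the RNA that silences an X chromosome, against 312 to 426 in the other 6. The Y-chromosome genes Ddx3y, Eif2s3y, Uty and Kdm5d stood at 0.0674 to 0.316 CPM there, against 24.2 to 69.5 CPM in the other 6. The labels give no sex, but by these genes M901 and M902 were female and the other 6 male. Library M909 stood apart on the second component (19.2%). The 5 surface epithelium markers, keratins among them, summed to 75.7 CPM there, against 4.96 to 8.24 CPM in the controls and 5.76 to 9.79 CPM in the other Rbfox2-/- retinas. The log2 fold change of each of the 10 genes is therefore also given without M901 and M902, as are the medians of the main lists.

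None of the 10 genes passed the test. At an adjusted p below 0.05, edgeR's quasi-likelihood test called 0 of the 10 genes and 11 of all 16797 genes (0.0655%). DESeq2, edgeR's likelihood ratio test and limma-voom called 0 of the 10 as well, and 2.74%, 0.976% and 0.0655% of all genes. At an unadjusted p below 0.05 the quasi-likelihood test had 0 of the 10, against 13.3% of all genes. DESeq2 had 1 (Lcn2), the likelihood ratio test 2 (Serpina3n and C4b) and limma-voom 2 (Lcn2 and C4b), against 14.3%, 10% and 12.8% of all genes. The CPM ranges of the groups overlapped for each of the 10 genes, whereas 7.03% of all genes had groups that did not overlap. Mean levels were lower in Rbfox2-/- retinas for 6 of the 10 on the fitted scale and higher for 4 (49.3% of all genes were lower). The median log2 fold change was -0.05, beside 0.002 over all genes tested.

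**Figure D1:**
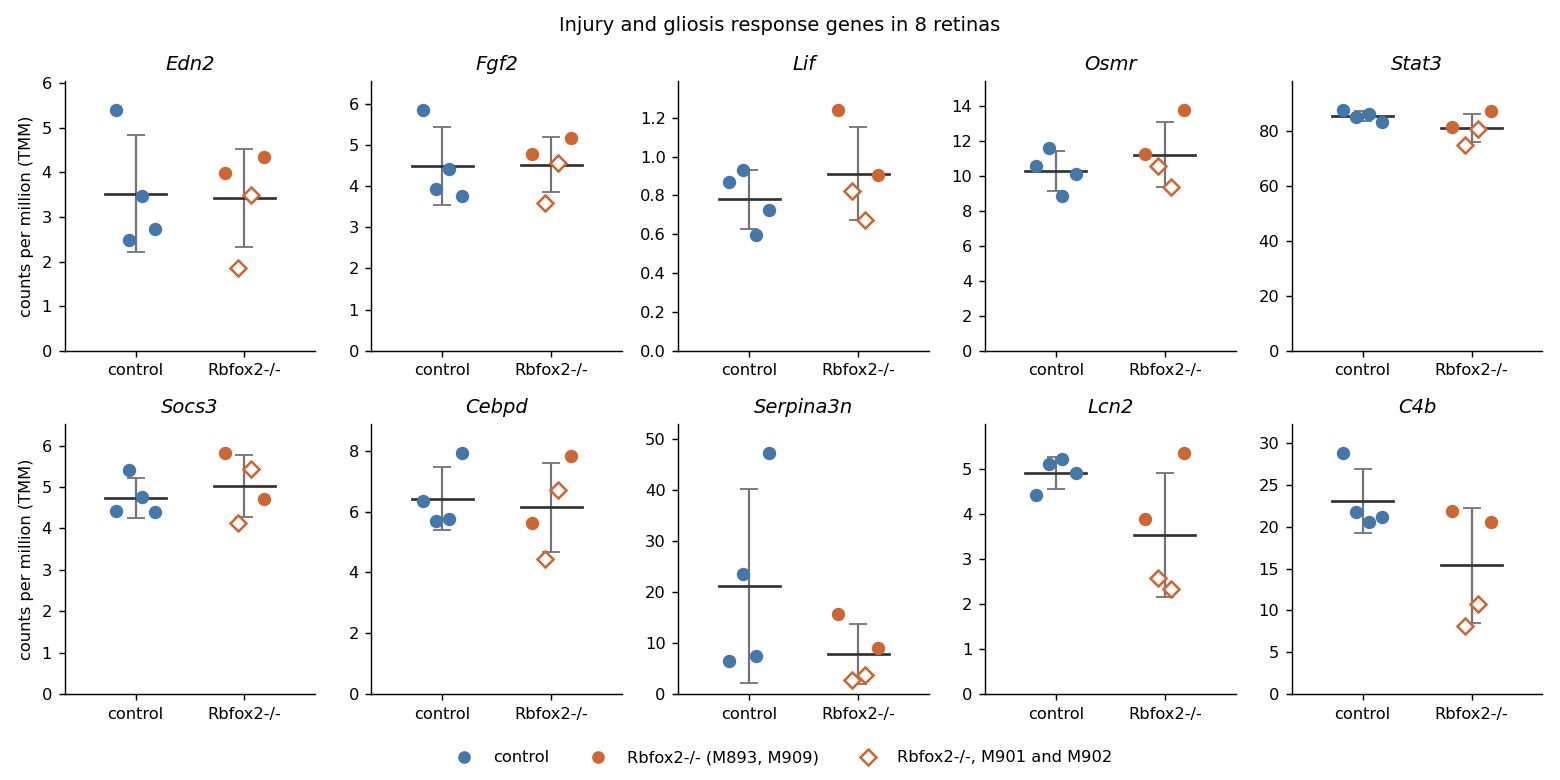
CPM (TMM-scaled, linear axes from 0) of the 10 genes in each of 8 retinas. Points are mice, horizontal lines are group means and bars are 1 SD with 4 mice per group. The groups overlap in all 10 panels. Diamonds mark M901 and M902, which lie below the other 6 retinas for Serpina3n, Lcn2, C4b and Stat3.

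The 3 acute-phase genes had the lowest p-values of the 10. Serpina3n, a secreted inhibitor of serine proteases, stood at 6.38, 23.5, 7.51 and 47.3 CPM in M833, M894, M896 and M898 of the control group, and at 15.6, 2.78, 3.73 and 8.99 CPM in M893, M901, M902 and M909 of the Rbfox2-/- group. The highest values were those of the controls M898 and M894, the lowest those of M901 and M902, and the groups overlapped. The mean was 21.2 ± 19.1 CPM in controls and 7.77 ± 5.88 CPM in Rbfox2-/- retinas (SD, n = 4 each). The log2 fold change of -1.44 ± 0.70 (SE) did not pass the test (edgeR quasi-likelihood test, adjusted p = 0.404), and its 95% interval ran from -3.00 to 0.11. The highest of the 8 libraries had 17.0 times the level of the lowest, and among the controls alone the ratio was 7.42.

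Lcn2, which binds bacterial siderophores and rises in injured glia, stood at 4.42, 5.10, 5.22 and 4.91 CPM in the controls and at 3.88, 2.58, 2.33 and 5.35 CPM in the Rbfox2-/- retinas, in the same order of mice. M901 and M902 lay below every other retina, while M909 had the highest value of all 8. The difference between the means, 4.91 ± 0.353 and 3.53 ± 1.38 CPM (SD, n = 4 each), was a log2 fold change of -0.47 ± 0.23 (SE) with a 95% interval from -0.98 to 0.04, and it did not pass the test (edgeR quasi-likelihood test, adjusted p = 0.404).

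C4b, a component of the classical complement cascade, stood at 28.8, 21.7, 20.6 and 21.2 CPM in the controls and at 21.9, 8.10, 10.8 and 20.6 CPM in the Rbfox2-/- retinas. M893 and M909 lay within the range of the controls, while M901 and M902 lay far below all others. The means were 23.1 ± 3.81 and 15.4 ± 6.93 CPM (SD, n = 4 each), a log2 fold change of -0.59 ± 0.28 (SE) with a 95% interval from -1.22 to 0.05 (edgeR quasi-likelihood test, adjusted p = 0.404). Only uniquely mapped reads were counted, and C4b has a near-identical neighbour, C4a, which encodes the sex-limited protein, so the split of reads between them is uncertain. C4a stood at 1.95 to 2.32 CPM in the controls and at 2.12 to 2.69 CPM in the Rbfox2-/- retinas, and its values in M901 and M902 (2.12 and 2.37 CPM) were not the lowest of the 8.

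The difference in Lcn2 and C4b lay mostly in 2 of the 4 Rbfox2-/- retinas, and that in Serpina3n only in part. In M901 and M902 the mean level was 15.4% of the control mean for Serpina3n, 50.0% for Lcn2 and 41.0% for C4b. In M893 and M909 it was 58.1%, 93.9% and 92.2%. Both M901 and M902 lay below the other 6 libraries in 4 of the 10 genes (these 3 and Stat3), as in 9.35% of all genes. When M901 and M902 were left out, the log2 fold change was -0.79 ± 0.76 (SE) for Serpina3n, -0.09 ± 0.15 for Lcn2 and -0.12 ± 0.13 for C4b, and none had an unadjusted p below 0.05 (edgeR quasi-likelihood test, adjusted p = 0.948, 0.982 and 0.952). The controls held no library with Xist. Sex, or whatever else sets M901 and M902 apart, therefore cannot be told apart from the deletion within those 2 mice.

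Single libraries also moved these values. Without the control M898 the log2 fold change of Serpina3n was -0.68, and without M893 it was -2.03. The unadjusted p fell below 0.05 for Serpina3n without M833 (0.0275), M896 (0.0345) or M893 (0.0211), for C4b without M893 (0.0175) or M909 (0.0291), and for Lcn2 without M909 (0.00155, log2 fold change -0.75). Of all genes, 17.6% had an unadjusted p below 0.05 without M833, 8.84% without M896, 12.5% without M893 and 17.8% without M909. The lowest adjusted p in any of these fits was 0.105, that of Lcn2 without M909 (edgeR quasi-likelihood test).

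**Figure D2:**
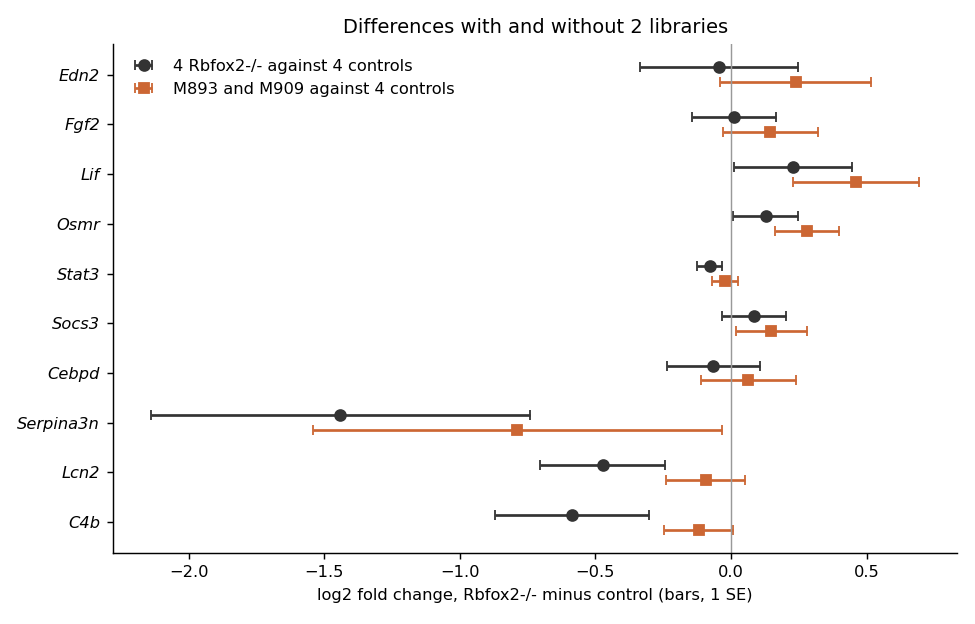
Log2 fold change of the 10 genes, Rbfox2-/- minus control, with bars of 1 SE from edgeR's quasi-likelihood test. Circles use all 8 libraries and squares leave out M901 and M902; C4b goes from -0.59 to -0.12 and Lcn2 from -0.47 to -0.09.

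Markers of a neighbouring tissue moved with Serpina3n. The ciliary epithelium lies at the rim of the retina and can be taken along in dissection. Its 5 markers, all of them tested, summed to 34.1 to 74.3 CPM in the controls and to 10.9 to 47.2 CPM in the Rbfox2-/- retinas. The sum was 10.9 CPM in M901 and 11.3 CPM in M902. Among the markers, the chloride channel Best2 stood at 0.150 and 0.208 CPM in these 2 libraries. M893 and M909, at 4.26 and 4.14 CPM, also lay below the controls, at 5.13 to 16.0 CPM. The groups thus did not overlap for Best2, as for 7.03% of all genes. All 5 markers had log2 fold changes below 0. Of these, Best2 had an unadjusted p below 0.05 (log2 fold change -2.02, edgeR quasi-likelihood test, adjusted p = 0.369). With M901 and M902 left out, the median of the 5 went from -0.82 to -0.11, Best2 stood at -1.09, and Wfdc1 (0.05) and Otx1 (0.07) lay above 0. Ordered by the summed markers, from M901 through M902, M833, M896, M909, M893 and M894 to M898, the 8 libraries had the same order as by Serpina3n. Of all genes with a mean of at least 1 CPM, the one most like Serpina3n across the 8 libraries, once the group means were subtracted, was Tyrp1, an enzyme of melanin synthesis in pigmented cells (Pearson r = 0.997 on log2 CPM). Lcn2 and C4b did not share this order, since M898 was the highest of the controls in neither. In bulk tissue, fewer cells of a type and less RNA per cell cannot be told apart. The part of the ciliary epithelium in the level of Serpina3n was not tested. Of the other Serpina3 genes counted, Serpina3g, Serpina3h, Serpina3c and Serpina3b, none exceeded 0.758 CPM in any library.

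The photoreceptor signals did not differ between the groups by more than their spread. Edn2, a vasoactive peptide that acts on the endothelin receptor Ednrb of Müller glia, stood at 5.40, 2.49, 3.46 and 2.74 CPM in M833, M894, M896 and M898 and at 3.99, 1.86, 3.50 and 4.34 CPM in M893, M901, M902 and M909. The highest value was that of the control M833 and the lowest that of M901, and the groups overlapped widely. The means were 3.53 ± 1.32 and 3.42 ± 1.10 CPM (SD, n = 4 each), with a log2 fold change of -0.04 ± 0.29 (SE), an interval from -0.70 to 0.61 and an adjusted p of 0.964 (edgeR quasi-likelihood test). Fgf2, a survival factor for photoreceptors, stood at 5.85, 3.92, 4.41 and 3.76 CPM in the controls and at 4.77, 3.59, 4.56 and 5.17 CPM in the Rbfox2-/- retinas. Again M833 was the highest and M901 the lowest. Its log2 fold change was 0.01 ± 0.16 (SE), with an interval from -0.34 to 0.36 (edgeR quasi-likelihood test, adjusted p = 0.986). Fgf2 overlaps Nudt6, Fgf2os and Gm42923 on the other strand and Gm43439 on its own strand. The counting is not stated to use strand, so reads of these genes may be mixed. Leaving out M901 and M902 gave 0.24 ± 0.28 for Edn2 and 0.14 ± 0.18 for Fgf2, neither of which passed the test.

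Edn2 and Fgf2 varied together from mouse to mouse. Across the 8 retinas, log2 CPM of the 2 genes had a Pearson r of 0.966 (exact permutation p = 0.000174, adjusted over 45 pairs 0.00783) and a Spearman rho of 0.976 (exact permutation p = 0.000397, adjusted 0.0179). This was the only one of the 45 pairs among the 10 genes that passed the adjusted threshold with either measure. Without M833 and M901, the 2 retinas farthest from the median of Edn2, r was 0.962, and without M901 and M902 it was 0.98. Both genotypes lay on the same line, since the order ran through M833, M909, M893, M902 and M896 for both genes before M894 and M898 changed places and M901 came last. Over the 8 libraries, with group means subtracted, the gene most like Edn2 was Elfn1 (r = 0.974), followed by Fgf2 (0.971), and the one most like Fgf2 was Arhgef2 (0.975). The levels of the pair thus varied by up to 2.90 times for Edn2 and 1.63 times for Fgf2 between mice while the means of the genotypes were close.

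**Figure D3:**
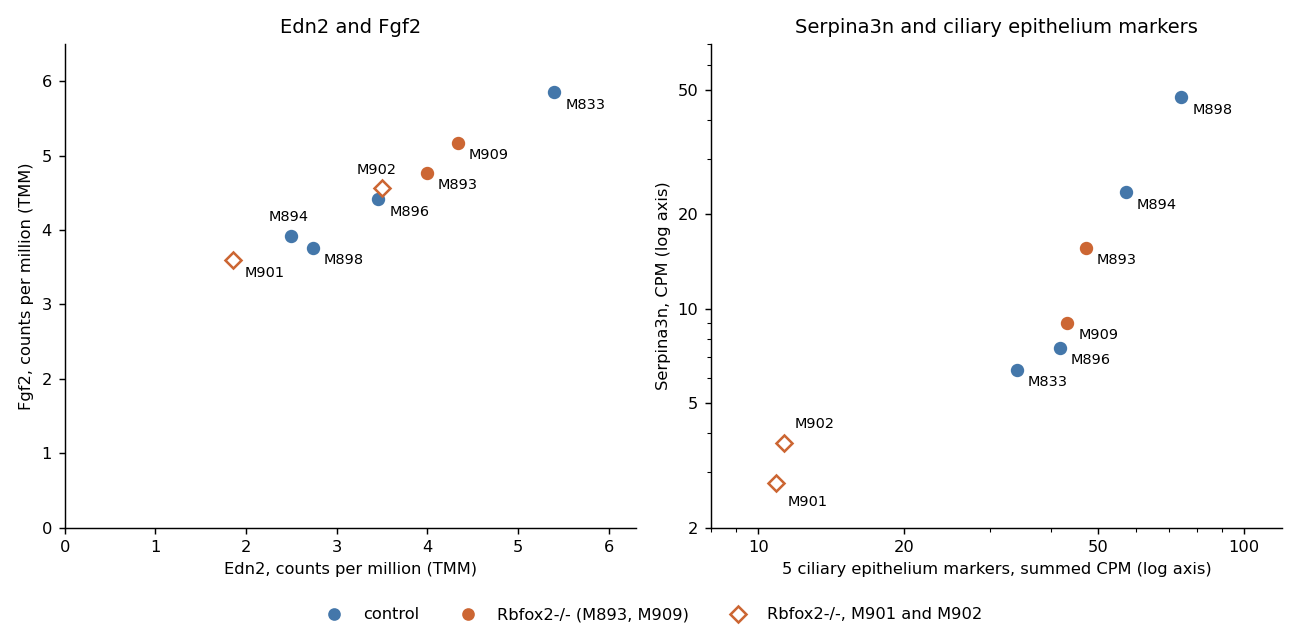
Left, Edn2 against Fgf2 in 8 retinas (CPM, linear axes from 0), where points of both genotypes fall along one line. Right, Serpina3n against the summed CPM of 5 ciliary epithelium markers (both axes logarithmic), where M901 and M902 lie lowest on both axes and M898 highest.

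None of the cytokine pathway genes passed the test. Lif, the ligand, stood at 0.870, 0.933, 0.596 and 0.723 CPM in the controls and at 1.24, 0.825, 0.674 and 0.907 CPM in the Rbfox2-/- retinas. M893 was the highest and the control M896 the lowest, with overlap between the groups. The log2 fold change was 0.23 ± 0.22 (SE), with an interval from -0.26 to 0.71 (edgeR quasi-likelihood test, adjusted p = 0.690), and 0.46 ± 0.23 without M901 and M902. Osmr, the oncostatin M receptor, which pairs with gp130 as the Lif receptor does, stood at 10.6, 11.6, 8.87 and 10.1 CPM in the controls and at 11.3, 10.6, 9.37 and 13.8 CPM in the Rbfox2-/- retinas. The highest value was that of M909, and the other 3 Rbfox2-/- retinas lay within the range of the controls. Its log2 fold change of 0.13 ± 0.12 (SE; edgeR quasi-likelihood test, adjusted p = 0.682) was 0.28 ± 0.12 without M901 and M902. There Osmr was the only one of the 10 with an unadjusted p below 0.05 (0.0456, adjusted p = 0.820; 6.01% of all genes in that fit). Without M909, the library with the surface epithelium markers, it was 0.01 ± 0.10. The part of these markers in the level of Osmr was not tested.

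Stat3, the transcription factor that gp130 receptors activate, was the steadiest of the 10. It stood at 87.6, 85.1, 86.0 and 83.2 CPM in the controls and at 81.3, 74.8, 80.6 and 87.2 CPM in the Rbfox2-/- retinas. Of the latter, M893, M901 and M902 lay below all controls and M909 among them. The log2 fold change was -0.08 ± 0.05 (SE), and its interval of -0.18 to 0.02 bounded the change more tightly than that of any of the other 9 genes (edgeR quasi-likelihood test, adjusted p = 0.489). Without M909 the unadjusted p was 0.0143 (log2 fold change -0.12, adjusted p = 0.184), and without M901 and M902 the log2 fold change was -0.02. These counts measure the mRNA and hold nothing on phosphorylation, which is how Stat3 is activated.

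Genes that this signalling induces did not pass the test either. Socs3, the feedback inhibitor that Stat3 induces, stood at 4.41, 5.42, 4.76 and 4.39 CPM in the controls and at 5.82, 4.14, 5.43 and 4.72 CPM in the Rbfox2-/- retinas. M893 was the highest and M901 the lowest, and the log2 fold change was 0.08 ± 0.12 (SE), with an interval from -0.18 to 0.35 (edgeR quasi-likelihood test, adjusted p = 0.805). Cebpd, a C/EBP transcription factor of the acute-phase response, stood at 6.35, 5.68, 5.76 and 7.93 CPM in the controls and at 5.62, 4.43, 6.71 and 7.84 CPM in the Rbfox2-/- retinas. M898 was the highest and M901 the lowest. Its log2 fold change was -0.06 ± 0.17 (SE; edgeR quasi-likelihood test, adjusted p = 0.905). Cebpd overlaps Spidr on the other strand, so reads of these genes may be mixed, as for Fgf2. Leaving out M901 and M902 gave 0.15 ± 0.13 for Socs3 and 0.06 ± 0.17 for Cebpd. Lif and Osmr changed in nearly the same order between mice (Spearman rho = 0.905, exact permutation p = 0.00456, adjusted over 45 pairs 0.103; Pearson r = 0.698, exact permutation p = 0.0544, adjusted 0.408), which did not pass the adjusted threshold. Without the 2 retinas farthest from the median of Lif, M893 and M896, the Pearson r was 0.796.

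Library M901 had the lowest value in 7 of the 10 genes (13.5% of all genes), M896 in 2 (8.7%) and M902 in 1 (14%). M909 was the highest or second highest in 6 of the 10 (26.7% of all genes). The 10 genes varied more between mice than most genes did. The median ratio of the highest to the lowest library was 1.94, against 1.24 over all genes tested, and the median coefficient of variation among the controls was 16.4% against 6.51%. Most of the 10 have a low CPM, and level was not matched in this comparison. By the same measure as for Serpina3n, over 8 libraries with group means subtracted, the gene most like Lif was Icam1 (r = 0.95), the one most like Osmr was Rrbp1 (0.967), Stat3 had Fam53a (0.987), Socs3 had Dzip1l (0.985), Cebpd had Ccdc141 (0.974), Lcn2 had 0610040J01Rik (0.988) and C4b had Mnt (0.976). Each was picked as the best among all genes at that level, so the r is a description.

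Per length of the gene model (FPKM, fragments scaled by model length and library total), Stat3 was the most abundant of the 10, with 16.6 to 19.6 FPKM and a median of 19.2. Fgf2 followed at a median of 6.45, Lcn2 at 5.48, Serpina3n at 3.96, C4b at 3.93, Edn2 at 2.79, Cebpd at 2.67, Osmr at 2.16 and Socs3 at 1.74 FPKM. Lif was the least abundant, with 0.150 to 0.312 FPKM. The place of Fgf2 rests on its gene model, the shortest of the 10. Counts and FPKM imply 695 bases for it, against 4835 for Osmr. By mean CPM in controls, Fgf2 (4.49) lay below Osmr (10.3) and Cebpd (6.43). The range of Stat3 did not overlap that of Fgf2, nor that of Socs3 the range of Lif, while all other neighbours in this order overlapped over the 8 libraries. Serpina3n spanned 1.32 to 23.1 FPKM and so reached above Stat3 in M898 and below Socs3 in M901 and M902.

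The sequences just upstream of 3 of these genes are shown because Socs3 and the acute-phase genes are known for control by Stat and C/EBP factors, and because Lcn2 and Serpina3n were lowest in M901 and M902 whereas Socs3 was not low in both. Each run gives the 250 bases before the transcription start in RefSeq (GRCm38.p6), 5′ to 3′ on the strand of the gene. Capitals mark a match to the Stat motif TTCNNNGAA or the C/EBP motif TTGCNNAA, both searched on both strands.
Socs3 (chr11:117969367-117969616, minus strand): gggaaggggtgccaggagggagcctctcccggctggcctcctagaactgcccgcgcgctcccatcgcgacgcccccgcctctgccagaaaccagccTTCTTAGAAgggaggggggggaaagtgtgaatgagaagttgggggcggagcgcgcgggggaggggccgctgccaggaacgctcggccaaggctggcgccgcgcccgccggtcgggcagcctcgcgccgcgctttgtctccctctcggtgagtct
Lcn2 (chr2:32387740-32387989, minus strand): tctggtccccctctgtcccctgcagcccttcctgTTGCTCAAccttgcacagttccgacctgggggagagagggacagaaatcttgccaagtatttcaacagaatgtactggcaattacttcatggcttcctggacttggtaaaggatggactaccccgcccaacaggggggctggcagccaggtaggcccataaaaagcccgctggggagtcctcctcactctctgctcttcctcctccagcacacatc
Serpina3n (chr12:104406458-104406707, plus strand): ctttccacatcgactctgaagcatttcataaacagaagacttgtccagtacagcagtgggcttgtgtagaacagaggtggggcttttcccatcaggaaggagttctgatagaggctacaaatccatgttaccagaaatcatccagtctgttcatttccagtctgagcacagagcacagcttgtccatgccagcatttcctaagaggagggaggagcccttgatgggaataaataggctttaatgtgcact

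The Stat match of Socs3 began 154 bases and the C/EBP match of Lcn2 216 bases before the RefSeq start, and Serpina3n had neither. In GENCODE M21 Socs3 and Lcn2 begin farther upstream, at 117970047 and 32388252. Their windows lie inside the gene models there, so these distances hold for the RefSeq starts only. Such windows matched the Stat motif in 7.02% and the C/EBP motif in 9.56% of 32851 promoters. Among the 8 of the 10 genes with a promoter in the table, no other had a match. A match is a run of letters and not a measured site.

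The wider pathways were described from lists of genes. Of the 6 other endothelin genes, converting enzymes and receptors included, 1 had an unadjusted p below 0.05 (6.87% of all genes were lower and 6.42% higher at that level) and the median log2 fold change was -0.11 (-0.13 with M901 and M902 left out). That gene was Edn3, the ligand of Ednrb in pigment cell development, at 2.07, 2.81, 2.20 and 6.80 CPM in the controls and 1.70, 0.394, 0.511 and 1.80 CPM in the Rbfox2-/- retinas. Its groups did not overlap, M898 was the highest and M901 and M902 the lowest, as for Serpina3n, and the log2 fold change was -1.65 ± 0.55 (SE; edgeR quasi-likelihood test, adjusted p = 0.272) or -0.99 (unadjusted p = 0.0709) without M901 and M902. The converting enzymes Ece1 and Ece2 had the highest levels of the list, at means of 89.5 and 50.9 CPM in controls. Of 14 FGF pathway genes, 1 was lower and 2 were higher at an unadjusted p below 0.05, the receptor Fgfr1 (log2 fold change -0.28) and the FGF-induced ETS factors Etv4 (0.60) and Etv5 (0.20), with adjusted p between 0.316 and 0.344. Their groups overlapped, and the median of the list was -0.07. Once M901 and M902 were left out, Fgfr1 stood at -0.11 (unadjusted p = 0.284) and Etv4 at 0.49 (0.144), both above 0.05, while Etv5 stood at 0.19 (0.0457) and the median was -0.09. Spred1, an inhibitor of the pathway, and the ligand Fgf1 were its most abundant members.

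Of 23 genes of the IL-6 family and the JAK-STAT pathway that were tested, 1 was lower and 1 higher at an unadjusted p below 0.05, with a median log2 fold change of -0.03 (-0.04 with M901 and M902 left out). Socs1, a feedback inhibitor like Socs3, had a log2 fold change of -0.51 ± 0.21 (SE), or -0.20 without M901 and M902, and the Stat3 inhibitor Pias3 one of 0.16 ± 0.05 (edgeR quasi-likelihood test, adjusted p = 0.350 and 0.268). Without these 2 libraries neither had an unadjusted p below 0.05 (0.313 and 0.113), and Pias3 stood at 0.12. Jak1 and Socs7 were the most abundant of the list. Of the 4 other C/EBP genes tested, Cebpb alone had an unadjusted p below 0.05. It encodes the C/EBP factor best known from the acute-phase response in liver. Cebpb stood at 4.60, 4.89, 4.53 and 5.64 CPM in the controls and at 3.87, 3.25, 3.41 and 3.81 CPM in the Rbfox2-/- retinas. Its groups did not overlap, and M893 and M909 lay below the controls like M901 and M902. The log2 fold change was -0.45 ± 0.10 (SE), with an adjusted p of 0.143 by edgeR's quasi-likelihood test, which is above the threshold, and it was -0.36 without M901 and M902. DESeq2 called it and called none of the 10 genes. Cebpg and Cebpz, the most abundant of the list, overlapped between the groups.

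Of 23 other reactive glia genes, 5 were lower and 1 was higher at an unadjusted p below 0.05, and the median log2 fold change was -0.13. This balance rested on single libraries, since with M901 and M902 left out 1 was lower and 3 were higher, with a median of -0.01, and without M909 9 were lower and 1 was higher. None of the 23 passed an adjusted p of 0.05 by edgeR's quasi-likelihood test, its likelihood ratio test or limma-voom, and 1 was lower by DESeq2. Gfap, the filament protein that reactive Müller glia accumulate, stood at 11.0, 8.90, 9.48 and 7.19 CPM in the controls and at 10.7, 7.97, 11.3 and 10.8 CPM in the Rbfox2-/- retinas. The groups overlapped, and the log2 fold change was 0.15 ± 0.14 (SE), with an interval from -0.16 to 0.46 (edgeR quasi-likelihood test, adjusted p = 0.669), or 0.23 with M901 and M902 left out. Fkbp5, a glucocorticoid-induced chaperone, had a log2 fold change of -0.41 ± 0.11 (SE), and Gbp2, an interferon-induced GTPase, one of -0.66 ± 0.26 (adjusted p = 0.216 and 0.335). In the 6 other libraries Fkbp5 stood at -0.36 and Gbp2 at -0.38 (unadjusted p = 0.0358 and 0.236). Gbp2 also rested on the control M896, at 9.42 CPM against 4.41 to 4.95 CPM in the other controls. Without M896 alone its log2 fold change was -0.34. Tgm1 (-2.57) and the chemokine Cxcl10 (-1.68) had low levels, with means of 2.63 and 0.234 CPM in controls. Tgm1 ran highest in M898 (7.54 CPM) and lowest in M901 and M902. Cxcl10 ran highest in the control M896 (0.517 CPM), and its log2 fold change was -0.93 without that library. The iron oxidase Cp and the filament protein Vim were the most abundant of the list.

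C4b acts in the complement cascade, whose other genes were listed. Of 16 tested, 7 were lower and 1 was higher at an unadjusted p below 0.05, beside 6.87% and 6.42% of all genes. The median log2 fold change of the 16 was -0.25. None passed an adjusted p of 0.05 by the quasi-likelihood test, the likelihood ratio test, DESeq2 or limma-voom. The groups did not overlap for Cfi and C3ar1, as for 7.03% of all genes. Cfi, a protease that inactivates C4b and C3b, stood at 1.85 ± 0.191 CPM in controls and 1.25 ± 0.283 CPM in Rbfox2-/- retinas (SD, n = 4 each). C3ar1, the C3a receptor of microglia, stood at 0.629 ± 0.0716 and 0.384 ± 0.0976 CPM. C1s1, which cleaves C4, had a log2 fold change of -0.40, C1qb one of -0.21 and the membrane inhibitor Cd59a one of 0.33 (adjusted p between 0.329 and 0.353). Without M901 and M902, 1 of the 16 had an unadjusted p below 0.05 (6.01% of all genes in that fit) and the median was -0.07. In the case of Cfi the difference was larger there (-0.82 against -0.56). The 9 microglia markers, which include Csf1r, had 0 with an unadjusted p below 0.05, and summed to 63.4 to 70.3 CPM in the controls, 60.6 and 57.3 CPM in M901 and M902, and 66.0 and 71.3 CPM in M893 and M909. The part of microglia in the level of the complement genes was not tested. Leukocyte markers were scarce, with sums of 2.25 to 9.77 CPM over 6 genes, of which Lyz2 was lowest in M901 and M902 (1.60 and 1.46 CPM; log2 fold change -1.05). The other 3 tested, S100a8 (1.23), Cd79a (0.37) and Ptprc (0.04), lay above 0 and none had an unadjusted p below 0.05, and the median of the 4 was 0.21, or 0.52 with M901 and M902 left out.

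**Figure D4:**
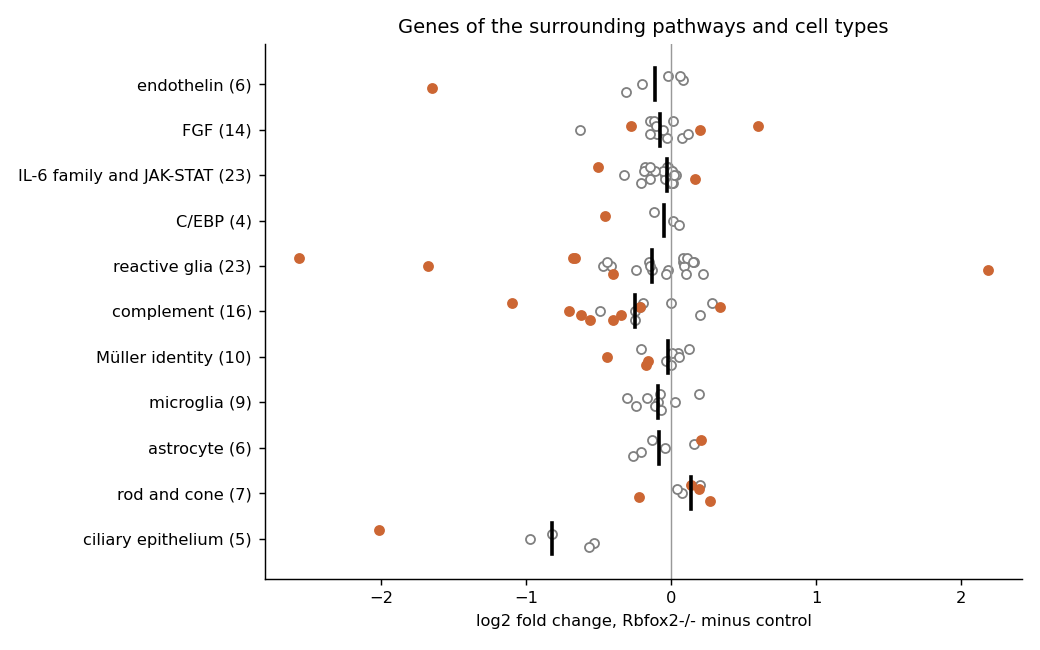
Log2 fold change, Rbfox2-/- minus control, of the genes tested in 11 lists (number tested in brackets). Filled points have an unadjusted p below 0.05 in edgeR's quasi-likelihood test, open points do not, and black lines are the medians of the lists; the complement list has its median at -0.25 and the ciliary epithelium markers at -0.82, which become -0.07 and -0.11 when M901 and M902 are left out.

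Markers of the cells that make up the response were measured in all retinas. Of 10 genes of Müller glia, 3 were lower at an unadjusted p below 0.05, beside 6.87% of all genes. The median log2 fold change was -0.02 (2 lower and a median of 0.008 with M901 and M902 left out). Glul, the glutamine synthetase of Müller glia, stood at 3380 ± 180 CPM in controls and 3000 ± 59.3 CPM in Rbfox2-/- retinas (SD, n = 4 each), with groups that did not overlap. The carbonic anhydrase Car14 had a log2 fold change of -0.44 ± 0.08 (SE), or -0.39 without M901 and M902, the lowest adjusted p of the lists here apart from Rbfox2 (0.0862, edgeR quasi-likelihood test). The groups did not overlap for Car14 either. DESeq2 called 2 of the 10, and the likelihood ratio test 1. Of 6 astrocyte markers, 1, the urea transporter Slc14a1, was higher at an unadjusted p below 0.05 (log2 fold change 0.21, adjusted p = 0.366). Retinal pigment epithelium markers, with Ttr and Rgr the most abundant, had no gene of 6 at that level. Their sum was highest in M909, at 216 CPM against 87.2 to 169 CPM in the other libraries. Of 7 rod and cone markers, 3 were higher and 1 lower at an unadjusted p below 0.05. These were the rod transducin Gnat1 (log2 fold change 0.19), the rod phosphodiesterase Pde6b (0.13), the cone opsin Opn1sw (0.26) and the cone opsin Opn1mw (-0.23), with adjusted p between 0.192 and 0.353 by edgeR's quasi-likelihood test, and DESeq2 called 3 of the 7. The groups did not overlap for Gnat1 and Pde6b, as for 7.03% of all genes. With M901 and M902 left out Opn1sw stood at 0.17, Gnat1 at 0.14 and Pde6b at 0.12. Opn1mw stood at -0.21 there, with an unadjusted p of 0.146 (edgeR quasi-likelihood test). In that fit 3 of the 7 were higher at an unadjusted p below 0.05, a level that 6.01% of all genes reached in either direction. Of 6 vascular markers, the pericyte gene Rgs5 (-0.34) and the endothelial gene Pecam1 (-0.25) were lower at an unadjusted p below 0.05. The groups did not overlap for Rgs5 and overlapped for Pecam1. Lens markers were low, with no gene above 1.85 CPM in any library. Of the red blood cell markers, Hba-a1, Hbb-bs and Hbb-bt were absent from the deposited table. Hba-a2 did not exceed 0.0511 CPM. Alas2 was highest in M898 (3.61 CPM) and lowest in M901 and M902 (0.612 and 0.983 CPM).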

How the data were processed

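Retinal poly(A) RNA of 8 mice was analysed, 4 per group, with groups taken from the genotype labels. The authors aligned paired reads to mm10 with STAR, assigned uniquely mapped fragments to genes with HTSeq (the methods name both a RefSeq and an Ensembl annotation) and deposited the raw counts of genes with at least 5 counts in at least 4 libraries. The deposited FPKM values, which the authors computed from the same counts, gene length and library total, were used only for levels between genes. The labels also name CASAVA 1.8.2 and edgeR. Deposited columns of log2 fold changes, p-values and per-mouse comparisons hold the authors' own comparisons and were not used, nor were 16 columns of adjusted values or comparisons per mouse.

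Of 17500 genes, 16797 passed filterByExpr. After TMM scaling, groups were compared by the quasi-likelihood test of edgeR 4.0.16 (R 4.3.3), with genotype as the only term and Benjamini-Hochberg adjustment over all genes tested. SE is the log2 fold change over the square root of F, and intervals are 95%. Alternatives were DESeq2 1.42.0, limma-voom (limma 3.58.1), edgeR's likelihood ratio test, other scalings and filters, leaving out each mouse, leaving out M901 and M902, and a term for Xist. Correlations used log2 CPM with a prior count of 2, and exact two-sided permutation of mice. The fit was tested on simulated counts. The mean chi-square per gene between replicates was 34.1 to 126, so no libraries agreed within sampling noise. Depth was 160630226 to 211283591 counts, and intervals of precision therefore rest on 4 mice per group.

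Named are the 10 genes, Rbfox2, Xist, the Y-chromosome genes, near-identical copies and the gene most alike each member. Of each list, those with an unadjusted p below 0.05 (at most 4) and the 2 with the highest level are named too. A2m, C1ra, C2 and Emp1 fell outside these limits, and some genes within them are not reported here. Gfap, Wfdc1, Otx1, S100a8, Cd79a, the order of libraries by ciliary epithelium markers and the tests of the 45 pairs were picked after values were seen. The members and lists were chosen with earlier results of these data known. Promoters came from RefSeq (GRCm38.p6), which held 8 of the 10 genes (not Cebpd and C4b). Overlaps of genes were read from GENCODE M21 (GRCm38).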

Additional observations from a re-analysis of the deposited data

Results flagged for a closer look

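One value of the 10 genes stood far from the rest of its group. C4b in the control M833 was 28.8 CPM, against 20.6 to 21.7 CPM in the other 3 controls, and its gap to the nearest control was 0.868 of the range of the group; Dixon's critical value at the 95% level for 4 samples lies below this. Of 22 groups examined, 1 had such a value, and chance gives about 1.1. Without M833 the log2 fold change of C4b was -0.47 and still below 0. M833 was also the highest library for Edn2, Fgf2 and Stat3.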

How the results depend on the processing

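No paired analysis was possible because the labels give no replicate numbers that the groups share. At an adjusted p below 0.05 the number of the 10 genes called was 0 in every alternative run, and no group of the 10 stopped overlapping without TMM or without M901 and M902. The number with an unadjusted p below 0.05 was 0, and 1 with DESeq2, 2 with the likelihood ratio test, 2 with limma-voom, 1 without M901 and M902, 1 with a term for the libraries with Xist, and 0 to 3 when each mouse was left out (3 without M909, 2 without M893, 1 without M833 or M896). Direction reversed for Edn2 (0.238 without M901 and M902, 0.239 with the Xist term, -0.179 to 0.236 leaving out each mouse), Cebpd (0.0636, 0.0664, and -0.204 to 0.0636) and Fgf2 (-0.065 to 0.162 leaving out each mouse), all on the log2 scale. The other 7 genes kept their direction. Only Rbfox2-/- libraries had Xist, so the Xist term leaves M893 and M909 against the controls. It is thus no separate check from leaving out M901 and M902. Over all genes, the number at an adjusted p below 0.05 was 11, but 460 with DESeq2, 164 with the likelihood ratio test, 1 without M901 and M902, 4 with the Xist term and 5 to 35 leaving out each mouse. At an unadjusted p below 0.05 it was 2233, against 1027 without M901 and M902 and 1113 with the Xist term. The cause was not tested, beyond the fewer libraries. Rbfox2 stayed between -1.43 and -1.38 leaving out each mouse. The number of mice limits these results more than depth does. Adding libraries with Xist to the controls was not possible, since none had it.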
